A study of Mus musculus with 12 samples.

Results

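The genes described here encode the core of 2 chromatin corepressor machines that meet at neuronal genes. They are Sin3a and Sin3b (the SIN3 scaffolds), Hdac1 and Hdac2 (histone deacetylases), Rcor1 and Rcor2 (the CoREST scaffolds), Kdm1a (the histone demethylase LSD1) and Rest (the DNA-binding repressor of neuronal genes). They were taken by gene symbol as a fixed list of 8, and all 8 were found among the 55335 genes listed in the files. Their levels were read by single-nucleus RNA sequencing in the forebrain of mice of the line C57BL/6-Myt1l em1Jdd/J, bred with C57BL/6J, at postnatal day 1 (P1), in 8 wild-type (WT) and 4 heterozygous (Het) animals, 1 library each. The Het animals carried 1 copy of the Myt1l S710fsX allele, a frameshift in the gene for a zinc-finger transcription factor of neurons, and the WT animals carried none. There were 5 male and 3 female WT and 3 male and 1 female Het libraries, named below by genotype, sex and number. The labels give the tissue as forebrain, while the study's methods once name prefrontal cortex.

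As background, SIN3A and SIN3B have no DNA-binding activity of their own. They hold HDAC1 or HDAC2 on chromatin, where these enzymes remove acetyl groups from histones, and transcription factors bring the assembly to DNA. REST binds a long DNA element near many neuronal genes and recruits SIN3 through one end and CoREST, with HDACs and KDM1A, through the other. It is known for holding neuronal genes silent in cells that are not neurons and for being lowered as neurons differentiate. MYT1L is one of the factors reported to recruit SIN3 complexes.

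In the mouse genome (GRCm38, also called mm10, GENCODE M21) all 8 are protein-coding genes. The plus-strand genes are Sin3a (ENSMUSG00000042557.14, chromosome 9, 57072040 to 57128366), Sin3b (ENSMUSG00000031622.16, chromosome 8, 72723285 to 72758201) and Hdac2 (ENSMUSG00000019777.16, chromosome 10, 36974544 to 37001889). Rcor1 (ENSMUSG00000037896.17, chromosome 12, 111039351 to 111115901), Rcor2 (ENSMUSG00000024968.14, chromosome 19, 7267325 to 7275225) and Rest (ENSMUSG00000029249.15, chromosome 5, 77265491 to 77286432) are also read from the plus strand. Hdac1 (ENSMUSG00000028800.15, 129516104 to 129542713) and Kdm1a (ENSMUSG00000036940.15, 136550540 to 136602723) are both on the minus strand of chromosome 4. Sin3b, Hdac1, Hdac2 and Rcor2 overlap no other annotated gene. Sin3a overlaps 2700012I20Rik and Man2c1os and Kdm1a overlaps Luzp1 on the opposite strand, Rcor1 overlaps Gm48632 on its own strand and Gm46379 on the other, and Kdm1a and Rest overlap Gm12987 and Mir5098 on their own strands. No source used here says whether the counting was stranded, so reads of overlapping genes may be joined. UMIs (unique molecular identifiers, 1 per captured RNA molecule) that the authors had divided between genes made up 4.03% of the Hdac1 UMIs and at most 1.4% for the other 7 genes.

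The CoREST paralogs Rcor1 and Rcor2 went in opposite directions between non-neuronal and neuronal classes, though not in cycling nuclei, as described below, and their promoters are shown for this reason. RefSeq promoter sequences (GRCm38.p6, 250 bases before to 50 after the start) were matched for 6 of the 8 genes. AAGTT, the core of the motif bound by MYT1 family proteins, was searched on both strands and is in capitals. It was present in 2 of the 6 genes, Rcor1 (1 match) and Sin3b (3 matches), and in 39.3% of all 32851 promoters of this length, and a match is a match of letters only. The Rcor1 window, chr12:111039117-111039416 on the plus strand, is 69.3% G or C, and the Rcor2 window, chr19:7267144-7267443 on the plus strand, is 67.3%.
Rcor1: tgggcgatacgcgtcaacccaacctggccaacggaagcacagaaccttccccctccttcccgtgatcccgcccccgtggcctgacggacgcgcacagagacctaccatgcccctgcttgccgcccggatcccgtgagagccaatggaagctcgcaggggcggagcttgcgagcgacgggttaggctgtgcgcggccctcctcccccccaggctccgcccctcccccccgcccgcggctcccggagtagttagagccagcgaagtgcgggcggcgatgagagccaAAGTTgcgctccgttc
Rcor2: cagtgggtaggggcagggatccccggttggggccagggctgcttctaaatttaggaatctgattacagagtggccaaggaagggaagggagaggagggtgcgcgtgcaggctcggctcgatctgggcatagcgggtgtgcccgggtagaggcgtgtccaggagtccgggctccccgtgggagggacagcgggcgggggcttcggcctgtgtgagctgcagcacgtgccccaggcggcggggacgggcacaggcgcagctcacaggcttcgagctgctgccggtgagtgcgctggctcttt

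Of 126684 barcodes, 94493 nuclei were kept, 55171 from WT and 39322 from Het libraries, and no barcode occurred in more than 1 library (0 shared). The libraries held 15439429 to 40784144 UMIs in all and 9732068 to 24189857 in kept nuclei, with a median of 1895 UMIs per kept nucleus. Nuclei were gated to 14 classes by fixed markers, none of them one of the 8 genes. Of the kept nuclei 70135 (74.2%) were gated and 24358 were not, and 22054 (23.3%) lay near a gate, so the classes are marker gates and not clusters. Levels are given as CPM, the usual depth-scaled unit, from UMIs of a gene relative to all UMIs summed over the nuclei of a class in a library, with at least 10 nuclei, and are compared between classes but not between genes. In 12 classes every library reached 10 nuclei. The intermediate progenitor gate (96 nuclei) did so in 4 libraries and the choroid/ependymal gate (251 nuclei) in 6. Myt1l, the mutated gene, stood at 1271 to 1608 CPM in WT and 1529 to 1651 CPM in Het libraries over all nuclei. The means were 1420 ± 111 CPM (SD, n = 8) in WT and 1571 ± 55.2 CPM (SD, n = 4) in Het libraries, so mean Myt1l was higher in Het. In excitatory nuclei the means were 1692 ± 129 CPM in WT and 1936 ± 48.7 CPM in Het libraries. In inhibitory nuclei they were 1568 ± 95.2 and 1723 ± 65.7 CPM. Myt1l was not called between genotypes by edgeR in these sums. A frameshift transcript can still be counted, which was not tested, so these levels do not check the genotype labels.

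Myt1l, a neuronal gene, was also counted in the other gates. It averaged 1699 ± 113 CPM (SD, n = 12 libraries) over the 4 neuronal classes (upper-layer excitatory, deep-layer excitatory, interneuron, striatal). It averaged 482 ± 102 CPM over the 5 non-neuronal classes (astroglia, oligodendrocyte lineage, microglia, endothelial, mural/fibroblast), and was highest there in microglia at 936 ± 170 CPM. No step here removed free RNA, and the part of neuronal RNA in the class differences below was not tested.

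Differences between classes were tested by edgeR's quasi-likelihood test on the class sums with library as a block and TMM scaling. A gene was called where the adjusted p (Benjamini-Hochberg) was under 0.05 with a log2 difference of 0.2 or more. The SEs and p-values of these tests rest on the spread over all class sums, several from each animal, and not on the number of animals alone. Cajal-Retzius neurons, excitatory nuclei without a layer and intermediate progenitors are on neither side of the first contrast, so "neuronal" below means the 4 classes named above. Between non-neuronal and neuronal classes, each side an equal-weight mean, 7 of the 8 genes were called, 4 higher (Rest, Rcor1, Hdac1 and Sin3a) and 3 lower (Rcor2, Kdm1a and Hdac2). Of all 12803 genes tested 67.6% were called, 34.6% higher and 33% lower, so a call alone does not set these genes apart. The scaling matters here. TMM put the median of all genes at 0.06 on the log2 scale with 4425 genes higher and 4231 lower, RLE put it at 0.27 with 5989 and 3196, and library size alone, as in CPM, at 0.42 with 7101 and 2646. The directions of Rest, Rcor1, Hdac1, Sin3a, Rcor2 and Kdm1a were the same and called under all 3 scalings, whereas of these 3 only TMM called Hdac2. DESeq2, with its own scaling, called all 8 genes, Hdac2 among them.

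**Figure D1:**
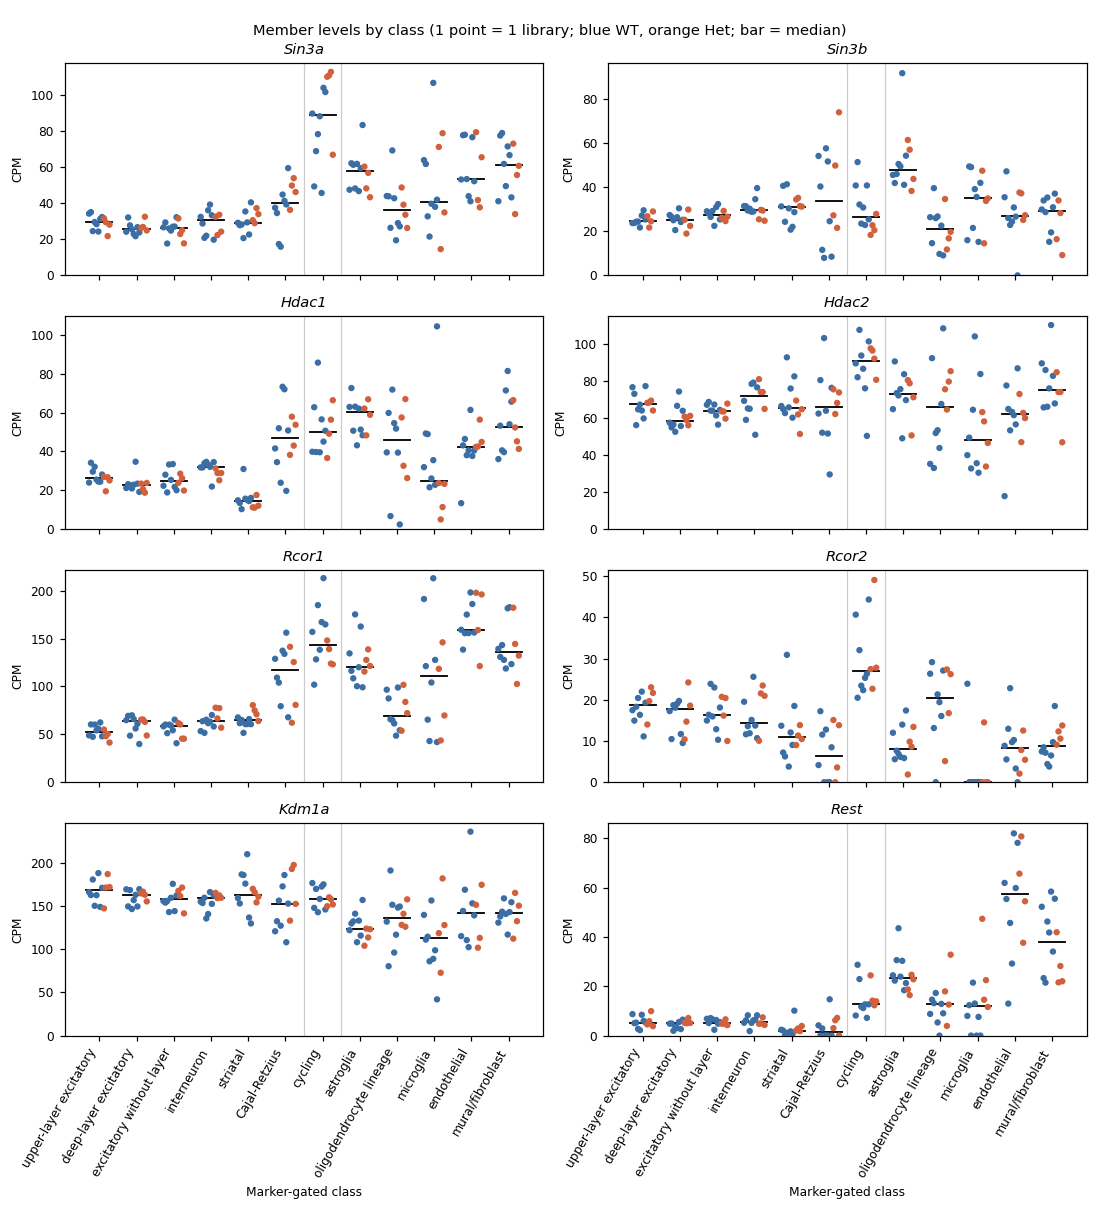
CPM of each gene (y axis) in the 12 marker-gated classes that had at least 10 nuclei in every library (x axis), with 1 point per library, blue for WT and orange for Het, and a bar at the median. Rest was highest in endothelial and mural/fibroblast nuclei, Rcor1 was lowest in the excitatory, interneuron and striatal classes, and Rcor2 was highest in cycling nuclei.

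Rest, the repressor itself, differed most between classes. Over the 4 neuronal classes its level per library ran from 2.04 to 7.53 CPM with a median of 4.42, and over the 5 non-neuronal classes from 15.6 to 38.3 with a median of 28.1. The 2 ranges did not overlap, and the ratio of the mean levels was 6.21. The fitted log2 difference was 2.14 ± 0.17 (SE, edgeR, adjusted p = 3.86e-27, class sums of 12 libraries), and the non-neuronal level was higher in 12 of 12 libraries by CPM. Within the non-neuronal side, endothelial nuclei had 55.3 ± 21.2 CPM (SD, n = 12), mural/fibroblast nuclei 37.2 ± 13.9, astroglia 24.8 ± 7.30, microglia 13.2 ± 13.2 and the oligodendrocyte lineage 12.4 ± 8.40. The microglial value rests on 15 UMIs in all and 3 libraries at 0. Among neurons, interneurons had 5.75 ± 1.80 CPM, upper-layer excitatory nuclei 5.65 ± 2.36, deep-layer excitatory nuclei 4.62 ± 1.53 and striatal nuclei 2.40 ± 2.67. Striatal nuclei held 34.8 Rest UMIs in all, with 2 libraries at 0, and Cajal-Retzius nuclei 8.50, with 6 libraries at 0.

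Textbook REST targets, a list of 22 neuronal genes, ran the other way. Their summed level was 3874 ± 162 CPM (SD, n = 12) over the neuronal and 1969 ± 202 CPM over the non-neuronal classes, higher in neurons in 12 of 12 libraries without overlap. Of 19 tested, 0 were called higher and 18 lower in non-neuronal classes under each of the 3 scalings. The list median was -1.69 beside 0.06 for all genes. The largest differences were in Snap25, a protein of synaptic vesicle fusion (-2.14 ± 0.06 SE), Unc13a, which primes vesicles (-2.11 ± 0.06), and Cplx1, a complexin (-2.09 ± 0.14). The lowest sums were in the classes with the most Rest, 959 ± 330 CPM in mural/fibroblast and 1108 ± 346 CPM in endothelial nuclei. Of these, endothelial nuclei had the higher mean Rest and also the higher sum. Astroglia (2276 ± 206), cycling nuclei (2284 ± 223), microglia (2351 ± 319) and the oligodendrocyte lineage (3151 ± 271) followed, the first 3 of them within 1 SD of each other. Mean Rest fell in this sequence, but its order among the last 3 was not resolved. Cycling nuclei had 15.0 ± 6.69 CPM of Rest, microglia 13.2 ± 13.2 and the oligodendrocyte lineage 12.4 ± 8.40. By median Rest the oligodendrocyte lineage ranked above cycling nuclei and microglia. The neuronal classes did not keep an inverse order either. Cajal-Retzius nuclei, with 3.18 CPM of Rest, had 2757 ± 203 CPM of the targets, and striatal nuclei, with 2.40 CPM of Rest, had 3690 ± 214, below upper-layer excitatory nuclei at 4322 ± 265. These genes mark neurons, so a lower level in non-neuronal gates follows from the choice of the list. No set of neuronal genes that are not REST targets was compared, so a part of REST in these levels was not tested. The part of neuronal RNA in the level of the targets in the other gates was not tested either.

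**Figure D2:**
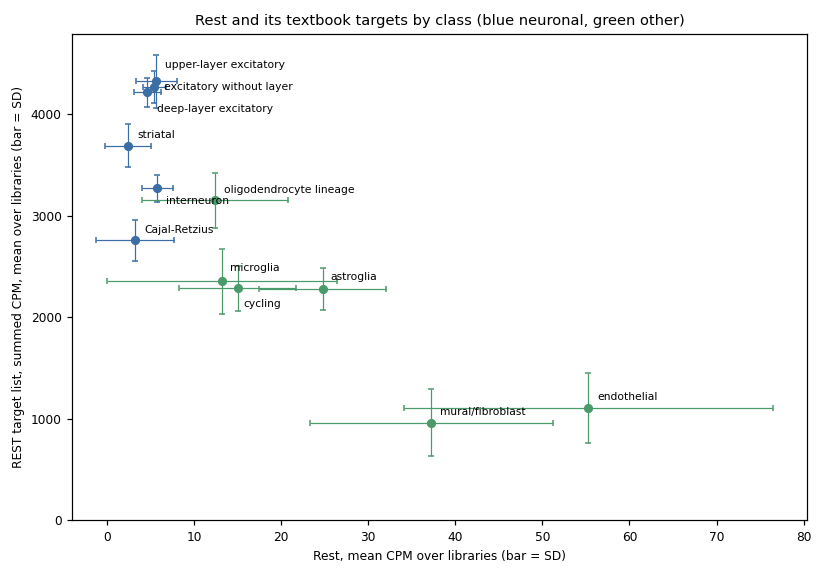
Mean Rest level (x axis, CPM) against the summed level of 22 textbook REST targets (y axis, CPM) in 12 classes, with bars of 1 SD over 12 libraries, neuronal classes in blue and others in green. Neuronal classes lie at the left, with Rest under 6 CPM, and endothelial and mural/fibroblast nuclei at the lower right, with target sums of 1108 and 959 CPM.

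Of the CoREST scaffolds, Rcor1, the widely expressed paralog, was higher in the non-neuronal than in the 4 neuronal classes. Its level per library ran from 51.6 to 69.7 CPM over the neuronal classes, with a median of 61.1, and from 95 to 152 CPM over the non-neuronal classes, with a median of 118. The ranges did not overlap. The fitted log2 difference was 0.63 ± 0.05 (SE, edgeR, adjusted p = 4.64e-25), and the ratio of mean CPM was 2.04. Endothelial nuclei were highest at 167 ± 24.5 CPM (SD, n = 12), followed by mural/fibroblast nuclei at 142 ± 26.5 and astroglia at 127 ± 23.2. The oligodendrocyte lineage, at 74.1 ± 18.9 CPM, lay nearest to the 4 neuronal classes. Cajal-Retzius neurons, at 111 ± 31.5 CPM, lay near the non-neuronal mean of 123 CPM.

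Rcor2, the paralog known from neural progenitors, showed the opposite direction. It ran from 10.9 to 21.1 CPM over the neuronal classes (median 15.7) and from 3.64 to 15.7 CPM over the non-neuronal classes (median 9.73). These ranges overlapped, yet the mean of the 4 neuronal classes was higher in 12 of 12 libraries. The fitted log2 difference was -1.12 ± 0.15 (SE, edgeR, adjusted p = 3.49e-12). The oligodendrocyte lineage was the exception within this side, at 19.0 ± 9.31 CPM (SD, n = 12) beside 9.11 ± 4.39 in astroglia, 9.32 ± 4.12 in mural/fibroblast and 8.45 ± 6.07 in endothelial nuclei. Of the 1326 nuclei gated to this lineage 446 lay near a gate, and the part of neurons in its Rcor1 and Rcor2 levels was not tested. In microglia 10 of 12 libraries had no Rcor2 UMI. Among neurons, Cajal-Retzius nuclei went against this direction at 7.23 ± 6.66 CPM, with 4 libraries at 0 and 18 UMIs in all.

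Kdm1a, the demethylase of the CoREST complex, was lower in the non-neuronal classes, by an amount that depended on the scaling. It ran from 147 to 181 CPM over the neuronal classes (median 162) and from 120 to 150 CPM over the non-neuronal classes (median 129). The ranges overlapped, with the neuronal classes higher in 12 of 12 libraries and a ratio of the means of 1.24. The fitted log2 difference was -0.65 ± 0.04 (SE, edgeR, adjusted p = 3.86e-35) with TMM and -0.29 ± 0.04 with library size alone.

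Of the SIN3 scaffolds, Sin3a was higher in the non-neuronal than in the 4 neuronal classes and Sin3b was not called. Sin3a ran from 24.4 to 31.2 CPM over the neuronal classes (median 28.8) and from 35.5 to 66.4 CPM over the non-neuronal classes (median 51.6), with no overlap. Its fitted log2 difference was 0.50 ± 0.07 (SE, edgeR, adjusted p = 8.13e-11), and the ratio of mean CPM was 1.83. Cajal-Retzius neurons had 39.6 ± 13.0 CPM of Sin3a (SD, n = 12), above the neuronal range and beside 37.4 ± 13.5 CPM in the oligodendrocyte lineage. Sin3b ran from 25.7 to 30.5 CPM over the neuronal and from 26.9 to 39.4 CPM over the non-neuronal classes. Its log2 difference was -0.17 ± 0.08 (edgeR, adjusted p = 0.0588) with TMM, 0.04 with RLE and 0.19 with library size alone, so its direction depended on the scaling. It was called lower by DESeq2 (-0.27). With TMM and edgeR it was called lower with no filter on low counts (-0.28), with the stricter gate (-0.26), and without WT female 1 (-0.31), WT female 2 (-0.27), WT female 3 (-0.29), Het male 1 (-0.23) or Het male 2 (-0.31). Astroglia stood at 51.6 ± 14.3 CPM of Sin3b (SD, n = 12), and the oligodendrocyte lineage at 21.4 ± 9.66.

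The 2 deacetylases differed from each other. Hdac1 ran from 19.9 to 29.6 CPM over the neuronal classes (median 23.6) and from 36.1 to 58.5 CPM over the non-neuronal classes (median 47.0), without overlap. Its fitted log2 difference was 0.60 ± 0.09 (SE, edgeR, adjusted p = 1.25e-10), and the ratio of mean CPM was 1.93. Astroglia had 57.6 ± 8.99 CPM (SD, n = 12) and mural/fibroblast nuclei 54.0 ± 14.5, against 15.1 ± 5.46 in striatal nuclei. Microglia, on the non-neuronal side, had 33.6 ± 25.9 CPM, from 26.8 UMIs in all. Their median of 24.9 CPM lay below those of interneurons (31.7) and upper-layer excitatory nuclei (26.1). The lack of overlap therefore holds for the mean of the non-neuronal classes and not for each class. Cajal-Retzius neurons, at 46.7 ± 16.8 CPM of Hdac1, lay at the non-neuronal mean of 46.0 CPM. Hdac2 stood at 66.3 ± 5.39 CPM over the neuronal and 65.6 ± 9.50 CPM over the non-neuronal classes. Its log2 difference was -0.37 ± 0.06 (edgeR, adjusted p = 2.85e-09) with TMM, -0.16 ± 0.06 with RLE and -0.01 ± 0.06 with library size alone, the last 2 not called.

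**Figure D3:**
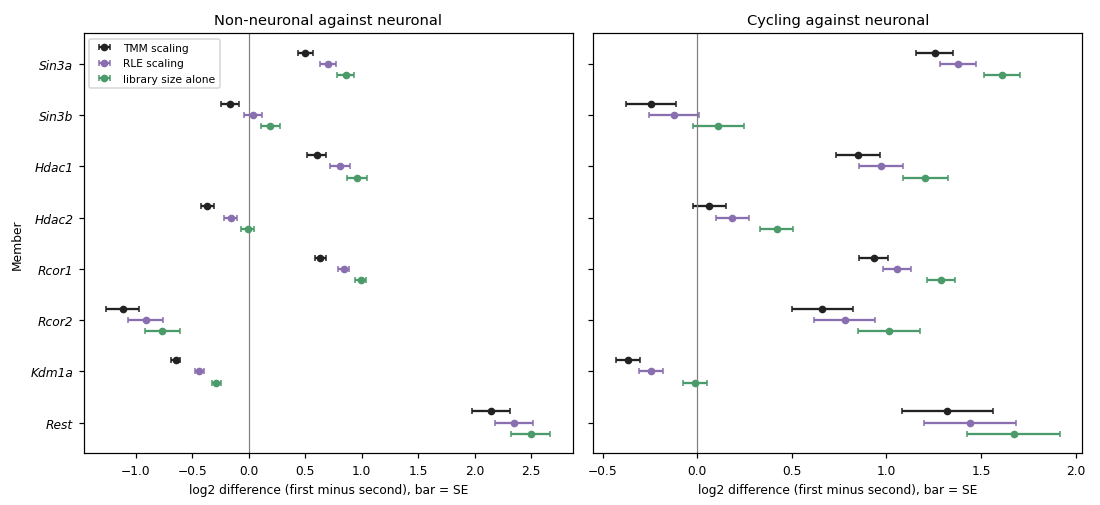
Fitted log2 differences (x axis, bars of 1 SE) of the 8 genes (y axis) between non-neuronal and neuronal classes (left) and between cycling nuclei and neurons (right) under TMM, RLE and library size alone. Rest, Rcor1, Hdac1 and Sin3a lie right of 0 in both panels under all 3 scalings, and Rcor2 lies left of 0 in the left panel and right of it in the right panel.

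Cycling nuclei, gated by genes of mitosis, gave the highest Sin3a level of the 12 classes. Against the 4 neuronal classes 6 of the 8 genes were called, 5 higher and 1 lower, where 63.4% of all genes were called, 36.2% higher and 27.1% lower. Sin3a stood at 85.3 ± 23.7 CPM (SD, n = 12) in cycling and 28.6 ± 2.20 CPM in neuronal classes, without overlap, a log2 difference of 1.25 ± 0.10 (SE, edgeR, adjusted p = 8.12e-27). Rcor1 stood at 149 ± 30.5 CPM (log2 difference 0.93 ± 0.08) and Hdac1 at 52.4 ± 14.4 CPM (0.85 ± 0.12), also without overlap with the mean of the 4 neuronal classes. Cajal-Retzius neurons, outside that mean, overlapped cycling nuclei. They ran from 15.9 to 59.3 CPM of Sin3a, 62.1 to 156 CPM of Rcor1 and 19.6 to 73.5 CPM of Hdac1. Rcor2, lower in the non-neuronal classes, was higher here in 12 of 12 libraries, at 30.2 ± 9.44 CPM beside 15.7 ± 3.66 CPM in neuronal classes (log2 difference 0.66 ± 0.16, adjusted p = 0.000134). Rest stood at 15.0 ± 6.69 CPM, with a log2 difference of 1.32 ± 0.24 (edgeR, adjusted p = 3.33e-07). Kdm1a was called lower with TMM (-0.37 ± 0.07) and not with library size alone (-0.01 ± 0.06), and its CPM was 159 ± 11.9 in cycling and 162 ± 9.16 in neuronal classes. Hdac2, at 87.8 ± 14.9 CPM, was higher than the neuronal mean in 11 of 12 libraries by CPM. It was called with library size alone (0.42 ± 0.09) and not with TMM (0.06 ± 0.09) or RLE (0.19 ± 0.09, edgeR, adjusted p = 0.0495), the last under the log2 threshold. Sin3b was not called (-0.24 ± 0.13, edgeR, adjusted p = 0.102), but was called lower by DESeq2 (-0.35), with the stricter gate (-0.40) and without WT male 1 (-0.35), WT female 1 (-0.34), WT female 2 (-0.42), WT female 3 (-0.35) or Het male 2 (-0.34), and stood at 0.11 with library size alone. The median of all genes was 0.10 with TMM, with 4638 genes higher and 3476 lower, and 0.22 with RLE (5343 and 2926). It was 0.45 with library size alone (6959 and 2068).

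Intermediate progenitors, known as precursors of excitatory neurons, were few. The gate required a lead over the cycling markers, and whether its nuclei were dividing was not tested. They had 1139 ± 314 CPM of Myt1l (SD, n = 4), beside 491 ± 130 CPM in cycling nuclei (n = 12). Their REST targets summed to 4062 ± 660 CPM, beside 4322 ± 265 CPM in upper-layer excitatory and 2284 ± 223 CPM in cycling nuclei. Their Rcor2 level was 62.5 CPM in WT male 1, 199 in WT female 3, 57.0 in Het male 2 and 95.5 in Het male 3, from 1 to 5 UMIs per library. In these small sums 1 UMI was worth 31.3 to 57.0 CPM, so the libraries taken singly show only that none was at 0. Over all 96 nuclei there were 16 Rcor2 UMIs, or 83.4 CPM (47.7 to 135, exact Poisson 95% interval, counting error only). The pooled level was 17.7 CPM (16.4 to 19.0) in upper-layer and 16.3 CPM (14.9 to 17.9) in deep-layer excitatory nuclei. Rest had 0 UMIs in these nuclei, which allows a level of up to 15.6 CPM by the limit of 3 counts and 19.2 CPM by the exact Poisson 95% interval, so a difference from excitatory neurons was not detectable at this depth. Of the 8 genes Rcor2 (log2 difference 1.49 ± 0.52 SE, edgeR, adjusted p = 0.0334) and Kdm1a (-0.74 ± 0.23, adjusted p = 0.0151) were called against the 2 excitatory classes, where 15.4% of all genes were and the median of all genes was -0.74. TMM gave 244 genes higher and 1731 lower, RLE 522 and 490, and library size alone 969 and 301. The call for Rcor2 was lost without WT female 3 (0.81), Het male 2 or Het male 3 (1.63) and with no filter on low counts (1.30). That for Kdm1a was lost without WT male 1 (-0.57), with no filter (-0.94) and with RLE (-0.11), and its direction turned to 0.19 with library size alone. Rcor1 was called higher with RLE (1.09 ± 0.34) and library size alone (1.39 ± 0.35), not with TMM (0.45 ± 0.33).

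Among neurons the genes differed less. Of the 8, 3 were called higher in excitatory than in inhibitory classes, where 37.6% of all genes were called. They were Hdac1 (log2 difference 0.33 ± 0.08 SE), Rcor2 (0.42 ± 0.10) and Rest (0.52 ± 0.16, edgeR, adjusted p = 0.00505). By CPM the excitatory side was higher in 8 of 12 libraries for Hdac1 (ratio of means 1.08), 10 for Rcor2 (1.19) and 9 for Rest (1.26). TMM gave 2581 genes higher and 2233 lower, RLE 2380 and 2459, and library size alone 1977 and 3032. Sin3b, at -0.19 ± 0.08 (edgeR, adjusted p = 0.0284), was just under the log2 threshold and was called lower with RLE (-0.22) and library size alone (-0.27), and Rcor1 with library size alone (-0.23). Sin3b also passed without WT male 1, 3 or 4, WT female 1 or 2, Het male 1 or 3 or Het female 1 (-0.20 to -0.22). For Hdac1 the 2 inhibitory classes differed: interneurons had 30.6 ± 3.89 CPM (SD, n = 12) and striatal nuclei 15.1 ± 5.46, with upper-layer excitatory nuclei at 26.7 ± 3.94 and deep-layer nuclei at 22.8 ± 4.11 between them. For Rcor2 too, interneurons at 16.5 ± 5.43 CPM lay near upper-layer (18.2 ± 3.58) and deep-layer excitatory nuclei (16.0 ± 4.62), and striatal nuclei at 12.2 ± 7.07 lay below. For Rest, interneurons at 5.75 ± 1.80 CPM were the highest of the 4 classes, and striatal nuclei, at 2.40 ± 2.67 CPM with 2 libraries at 0, lowered the inhibitory side. The Rest call was lost without Het male 3 (0.39). Between upper-layer and deep-layer excitatory nuclei, 0 of the 8 genes were called by edgeR, where 22.1% of all genes were. Rcor1 had an unadjusted p under 0.05 (log2 difference -0.20 ± 0.08, adjusted p = 0.0576) and was the 1 gene called by DESeq2 (-0.21). It was also called with RLE (-0.22), with divided UMIs left out (-0.21), and without WT male 4 (-0.22) or WT female 3 (-0.23).

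The classes were put in order of median CPM for each gene. Rest fell from endothelial (57.6) through mural/fibroblast (37.9), choroid/ependymal (32.9), astroglia (23.4), oligodendrocyte lineage (12.7) and cycling (12.7) to microglia (12), with all neuronal medians at 5.71 CPM or less. Sin3a was led by cycling nuclei (88.7) and Rcor1 by endothelial nuclei (159), Hdac1 by astroglia (60.6), Hdac2 by cycling nuclei (90.8) and Sin3b by choroid/ependymal nuclei (59.3). Among the classes with all 12 libraries, Rcor2 was led by cycling (26.9) and Kdm1a by upper-layer excitatory nuclei (168). Intermediate progenitors had higher medians for both (79.0 and 174), from 4 libraries with few UMIs, and for Kdm1a they were above upper-layer nuclei in 2 of these 4. Of 104 neighbouring pairs, 0 passed an exact sign-flip permutation test of paired log2(CPM + 1) differences after adjustment (two-sided, Benjamini-Hochberg), and 11 had an unadjusted p under 0.05. The test could hardly pass: the smallest p that 12 libraries allow is 0.000488, which would be 0.0508 after adjustment if 1 pair reached it, and only 80 pairs had all 12. Pairs with 6 or 4 libraries cannot go below 0.0313 or 0.125. The count of 0 therefore does not show that neighbours are alike. The smallest found was 0.00146, for deep-layer excitatory over striatal nuclei in Rest, higher in 11 of 12 libraries (adjusted p = 0.102).

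Over the 12 classes, and with levels as mean log2(CPM + 1), the genes whose pattern was most like a member's were searched among 11021 genes. For Sin3a they were Casp8ap2 (Pearson r = 0.99) and Rdx (0.97), for Rcor1 Mllt10 (0.97) and Fam120a (0.97), and for Rest Lats2, a kinase of the Hippo pathway (0.99), and P4hb (0.98). Hdac1 was nearest to Supv3l1 (0.97) and Gkap1 (0.96), Hdac2 to Nup43, a nuclear pore protein (0.93), and Dmc1 (0.93), and Rcor2 to Gm9833 (0.97) and A430033K04Rik (0.96). Kdm1a was nearest to Gmcl1 (0.94) and Enoph1 (0.93), and Sin3b to Gabbr1, a GABA receptor subunit (0.91), and Pigk (0.88). Among the members, Sin3a and Rcor1 were closest (r = 0.93), followed by Hdac1 and Rcor1 (0.79). These values describe 12 classes that share libraries, and the best of many genes is high by selection.

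The other genes of the same complexes showed mixed directions between non-neuronal and neuronal classes. Over all genes 34.6% were higher and 33% lower with TMM, and 7101 genes were higher and 2646 lower with library size alone. Of the SIN3 complex list 7 of 16 tested were called higher and 0 lower (list median 0.15, all genes 0.06), led by Ing2 (1.01 ± 0.16 SE) and Rbbp7 (0.55 ± 0.08), subunits that bind histones, and Kdm5a (0.50 ± 0.04), a demethylase, and with library size alone 15 were higher and 0 lower. Of CoREST and its partners 4 of 14 were called higher and 5 lower (list median -0.01), and 8 and 3 with library size alone. Hmg20b, a CoREST subunit, was higher by 3.02 ± 0.15 and the corepressor Ctbp2 by 1.45 ± 0.08, while Zmym3 (-0.95 ± 0.07) and the methyltransferase gene Ehmt2 (-0.59 ± 0.05) were lower. Of other deacetylase complexes 9 of 16 were called higher and 3 lower (list median 0.36), with Gatad2a at 1.23 ± 0.08 and the neuronal remodeller gene Chd5 at -1.99 ± 0.07. Of the 3 MYT1 family genes 2 were lower, Myt1l (-2.33 ± 0.05) and Myt1 (-0.40 ± 0.11), the latter not with the other scalings.

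In cycling nuclei against neurons, the SIN3 complex list had 7 of 16 higher and 1 lower, CoREST and its partners 7 of 14 higher and 3 lower, and other deacetylase complexes 10 of 16 higher and 3 lower. Over all genes 36.2% were higher and 27.1% lower. The list medians were 0.32, 0.28 and 0.45, beside 0.10 for all genes. With library size alone the first list had 13 higher and 0 lower and the second 10 and 1, where 6959 of all genes were higher and 2068 lower. Sinhcaf (1.04 ± 0.16 SE) and Rbbp7 (1.03 ± 0.11) led the first and Hmg20b (2.81 ± 0.19) and Ctbp2 (1.68 ± 0.11) the second, apart from Insm1 (3.06 ± 0.18), which was a gate marker of intermediate progenitors. Myt1 (1.54 ± 0.11) and St18 (1.74 ± 0.22) were higher and Myt1l lower (-2.14 ± 0.10). REST targets were lower for 18 of 19 tested and higher for 0, with a median of -1.44 (17 lower with library size alone), and their sum was 2284 ± 223 CPM (SD, n = 12).

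Between Het and WT, no member was called. Over all nuclei 0 of 8 were called by edgeR, 0 had an unadjusted p under 0.05 and 0 were called by DESeq2, where edgeR called 0 of 20107 genes (0%). In sums over all nuclei the make-up of classes and the level per nucleus cannot be told apart. The smallest adjusted p was that of Hdac1, with a log2 difference of -0.14 ± 0.08 (SE, edgeR, adjusted p = 0.549). The differences of the other 7 lay between -0.05 (Sin3b) and 0.08 (Rest). In single classes and the excitatory and inhibitory sums, 0 of 90 pairs of gene and group were called by edgeR or DESeq2. By edgeR 3 had an unadjusted p under 0.05, Sin3b in cycling nuclei and Rcor1 and Hdac1 in the inhibitory sum. As many can arise by chance, and the sums reuse the nuclei of the single classes. The share of all genes called was 0.0381% in excitatory nuclei, 0.0267% in deep-layer excitatory nuclei, 0.0211% in striatal nuclei, 0.0165% in excitatory nuclei without a layer and 0% in every other class tested. Of the pathway lists, no gene was called in any class (0 in each direction).

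Sin3b, the scaffold reported to work with MYT1L, was at 26.2 ± 1.90 CPM in WT excitatory nuclei (SD, n = 8; lowest 23.8, median 25.5, highest 29.6). The Het libraries had 26.3, 23.5 and 25.7 CPM in males 1 to 3 and 25.8 CPM in the female, all within or just under the WT range. In inhibitory nuclei the WT libraries ran from 26.4 to 35.9 CPM (median 30.1) and the Het libraries had 29.0, 32.6, 30.2 and 27.7 CPM. The fitted log2 differences were -0.06 ± 0.07 and -0.04 ± 0.10 (SE, edgeR). In cycling nuclei Sin3b was at 22.8 to 51.3 CPM in the 8 WT libraries (median 31.4), from 4 to 20 UMIs in each WT and Het library. The Het libraries had 18.3, 22.7, 20.5 and 27.8 CPM, so that 3 of 4 lay below all WT libraries. Of these, Het male 2 at 22.7 CPM cannot be told apart from the lowest WT value of 22.8 CPM at such counts. The log2 difference there was -0.61 ± 0.29 (edgeR, unadjusted p = 0.0423, adjusted p = 1.00). In excitatory nuclei Sin3a (-0.05 ± 0.09), Hdac2 (-0.0043 ± 0.05) and Kdm1a (0.02 ± 0.06) also had log2 differences near 0. For Rest the Het libraries had 4.71, 5.34, 8.13 and 4.42 CPM in excitatory nuclei and the WT libraries 2.59 to 6.96 (median 4.90), a log2 difference of 0.16 ± 0.21, so this gene's difference was the least precise.

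**Figure D4:**
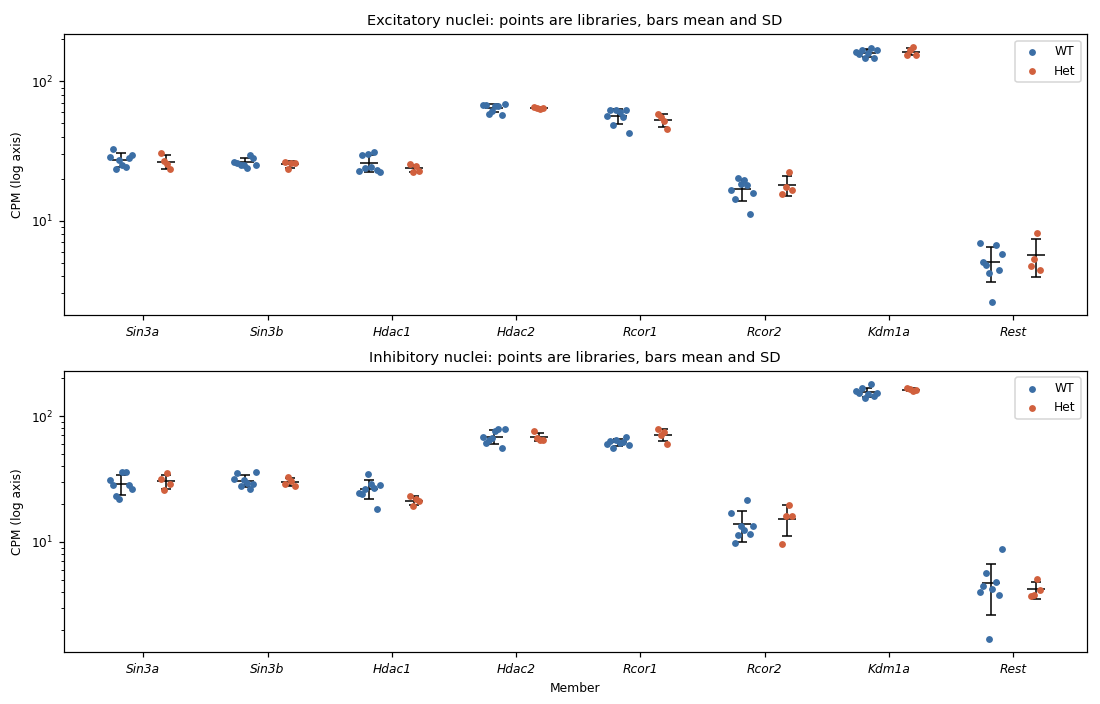
CPM (y axis, log scale) of the 8 genes (x axis) in excitatory (top) and inhibitory nuclei (bottom), with 1 point per library and bars for the mean and SD of 8 WT (blue) and 4 Het (orange) libraries. The groups overlap for every gene in both panels. Rcor1 in inhibitory nuclei averages 61.7 CPM in WT and 71.2 CPM in Het libraries.

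In inhibitory nuclei 2 more pairs had an unadjusted p under 0.05, and neither passed the adjustment. Rcor1 was at 55.8 to 68.2 CPM in the 8 WT libraries (median 61.9) and at 78.9, 71.1 and 74.7 CPM in the Het males 1 to 3 and 60.2 CPM in the Het female, so that 3 of 4 Het libraries lay above all WT libraries. The log2 difference was 0.20 ± 0.08 (SE, edgeR, unadjusted p = 0.0216, adjusted p = 0.625). By an exact permutation test over all 495 label assignments the two-sided p was 0.0182, or 0.436 adjusted over 24 tests (smallest possible 0.00202). Hdac1 was at 18.3 to 34.3 CPM in WT (median 26.6) and at 23.0, 19.1, 22 and 21.0 CPM in the Het libraries, with a log2 difference of -0.29 ± 0.12 (edgeR, unadjusted p = 0.0270, adjusted p = 0.629; exact permutation p = 0.0626, adjusted 0.752). Striatal nuclei, low in Hdac1, made up 6.23 to 42.0% of the inhibitory nuclei in WT (median 29.2%) and 37.3 to 53.4% in Het libraries (median 41.5%). Within interneurons the Hdac1 difference was -0.15 ± 0.13 and within striatal nuclei -0.22 ± 0.21, and that of Rcor1 was 0.19 ± 0.10 and 0.18 ± 0.10, none called (0 of 4). In excitatory nuclei Rcor1 was at 42.9 to 62.7 CPM in WT (median 58.5) and at 58.5, 55.5, 51.5 and 45.3 CPM in Het libraries. The log2 difference was -0.11 ± 0.10. It was -0.17 ± 0.10 within upper-layer nuclei, -0.0014 ± 0.12 within deep-layer nuclei and -0.10 ± 0.11 within excitatory nuclei without a layer, none called. The make-up of the excitatory sum by layer also varied between libraries, and its part in this difference was not tested.

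The difference between these genotype effects was tested for each gene on log2(CPM + 1), excitatory minus inhibitory nuclei within a library. For Rcor1 the WT mean was -0.13 ± 0.14 (SD, n = 8) and the Het mean -0.43 ± 0.07 (SD, n = 4), a difference of -0.29 (exact permutation test over 495 label assignments, two-sided p = 0.00808, adjusted p = 0.0646 over the 8 genes). It was the 1 gene of 8 with an unadjusted p under 0.05, and 0 passed the adjustment. Without WT female 3 the adjusted p was 0.0242. The other 7 genes had differences between -0.12 (Sin3a) and 0.20 (Rest), with adjusted p of 0.811 or more.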

How the data were processed

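Nuclei of P1 forebrain were sequenced in 12 libraries. The authors ran ScaleRna on mm10 (Seurat 4.3.0 is named in the submitters' processing notes) and deposited expected counts, unnormalized UMI counts in which 6.74 to 7.05% of entries per library are divided between genes. The plan had assumed whole counts, so sums were rounded before count models. Nuclei were kept by the study's limits on UMIs (800 to 6000), genes (300 to 3000), mitochondrial share (1% or less) and log genes over log UMIs (0.9 or more), which left 98111, and the 5% of barcodes per library with the highest simulated-doublet scores were marked (6333, of which 3618 had passed the filter and were removed). A class needed at least 2 markers and a score of 8, each marker weighted by -log2 of the share of nuclei with it, and a lead of 4 over other classes. Excitatory nuclei needed 2 markers and no other class at 8, with a layer given by a lead of 2, a rule set after gate sizes had been seen.

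Sums per class and library were tested with edgeR 4.0.16 (R 4.3.3; glmQLFit, robust, TMM, filterByExpr), on genotype alone for 8 WT against 4 Het libraries (with estimateDisp) and on class with library as block (without it, for run time). Adjustment ran over all genes tested. Alternatives were DESeq2 1.42.0, other scalings, no filter, a stricter gate (3 markers), all barcodes, doublets kept, divided UMIs left out, sex as covariate, males only, the replicate block, other pseudocounts and each library left out. Classes were ordered, and single values compared, by exact permutation. CPM used Python 3.11.15 and numpy 2.4.6. The pseudocount was 1 CPM. The edgeR steps were also run on simulated counts in which few genes changed, as many up as down. Between non-neuronal and neuronal classes most genes were called, so that run does not check the scaling there. The 8 genes and the lists were chosen with earlier results of these data known. Named besides the members were Myt1l, up to 3 called list genes per direction with the largest difference in each contrast, and the 2 genes most like each member (at least 1000 UMIs). Each library is 1 animal. The authors' own comparisons were not used.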

Additional observations from a re-analysis of the deposited data

Results flagged for a closer look

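In WT libraries over all nuclei, Rest stood at 6.17 CPM in WT male 5, below the next library at 7.71 CPM, a gap of 0.536 of the range of the 8 WT libraries. This was the 1 value set apart among 48 groups of libraries examined (8 genes in all, excitatory and inhibitory nuclei, WT and Het), where chance sets apart about 1 in 20 groups. The cause was not tested.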

How the results depend on the processing

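Of the members' calls, those between Het and WT stayed at 0 under every alternative run, over all nuclei and by class. Calls over the 5 class contrasts numbered 18 and ranged from 17 to 22. For the genotype effect between excitatory and inhibitory nuclei the count moved from 0 to 1 without WT female replicate 3 (range over libraries left out 0 to 1). With library size alone, an alternative chosen after seeing the data, Kdm1a in intermediate progenitors reversed from -0.74 to 0.19, as that scaling moved the median of all genes from -0.74 to 0.17. The stricter gate left too few intermediate progenitors for a contrast. RLE gave 1012 and TMM 1975 calls over all genes in that contrast.

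The replicate numbers did not pair the samples: deviations of same-numbered WT and Het libraries correlated at -0.17, 0.14 and 0.03 in males and 0.28 in females, and only the female Het library was nearest to its own number. With the replicate block 0 members were called over all nuclei and 0 by class. Calls over all genes moved more: in excitatory nuclei edgeR called 6 genes between genotypes, DESeq2 73, male libraries alone 199, no filter 58 and the replicate block 9. Over all nuclei these counts were 0, 32, 15, 2 and 0, and in inhibitory nuclei 0, 5, 0, 111 and 9. Rest and Rcor2 in small classes rest on few UMIs, which limits their precision.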
